A study of Mus musculus with 6 samples.

Results

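The genes that flank Ankrd33b on mouse chromosome 15 were followed at the transcript level in retinas that carry or lack that gene. The 7 genes are Ctnnd2, Dap, Ropn1l, March6, Cmbl, Cct5 and Fam173b, and they are 7 of the 24346 gene symbols in the deposited tables. They were chosen by position, as the protein-coding genes nearest to Ankrd33b, in a list drawn up when results of the same libraries were already known. Their differences between genotypes are therefore given as a description, with standard errors and without p-values. All 7 symbols were found in the tables.

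Whole retinas were taken at postnatal day 12, and each group has 3 libraries. Controls have the genotype Panky+/-;Panky-like+/-;Nrl-/-, and triple-deficient mice have the genotype Panky-/-;Panky-like-/-;Nrl-/-. Both groups lack Nrl, the factor that sends photoreceptor precursors to the rod fate, so most photoreceptors in every library are cone-like. The controls carry 1 mutant copy of Panky and 1 of Panky-like rather than none. Panky is Ankrd33, a photoreceptor co-repressor with ankyrin repeats, and its paralogue Ankrd33b is read here as Panky-like, which the labels do not state. The design text speaks of 3 littermate pairs, but no label ties a library's number to a pair or to 1 animal, so p-values cover only the spread between these samples. The question is whether the genes next to Ankrd33b are transcribed at another level where Ankrd33b transcripts are lost. Panky and Panky-like are both homozygous mutant in the same libraries. A difference that goes with Ankrd33b therefore cannot be told apart from one that goes with Ankrd33.

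Genes that lie side by side can share regulatory sequence, and a targeted allele can bring changed sequence into its surroundings, so the neighbours of a targeted gene are often examined with it. The neighbours here have unrelated products. Ctnnd2 encodes delta-catenin, a neuronal armadillo-repeat protein that binds cadherins, and Dap encodes a small proline-rich protein that restrains autophagy under the control of mTOR. Ropn1l encodes a ropporin-like protein known from the sperm flagellum, where it binds anchoring proteins of protein kinase A. March6 encodes a ubiquitin ligase of the endoplasmic reticulum (ER) membrane, and Cmbl a cytosolic hydrolase of the dienelactone hydrolase family. Cct5 encodes a subunit of TRiC, the ring-shaped chaperonin that folds actin, tubulin and other proteins, and Fam173b, now named Atpsckmt, a mitochondrial methyltransferase that modifies the c subunit of ATP synthase.

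In the RefSeq annotation of GRCm38 (the mm10 build), Ctnnd2 spans chr15:30172534-31029344 on the plus strand and Dap chr15:31224385-31274338 on the plus strand. Ankrd33b follows at chr15:31291479-31367802 on the minus strand, with only 17.1 kb between its end and that of Dap. Beyond it lie Ropn1l at chr15:31441210-31453689 (minus strand) and March6 at chr15:31455899-31531082 (minus strand). Cmbl at chr15:31565342-31590119 (plus strand), Cct5 at chr15:31590800-31601846 (minus strand) and Fam173b at chr15:31602116-31617537 (plus strand) close the cluster. The gap to Ankrd33b is 73.4 kb for Ropn1l, 88.1 kb for March6, 198 kb for Cmbl, 223 kb for Cct5, 234 kb for Fam173b and 262 kb for Ctnnd2. The whole interval covers 1.45 Mb, most of it Ctnnd2, whose body alone spans 857 kb. Of the 9 tabled genes in it, 8 are protein-coding, and the other is the long noncoding RNA gene 4930430F21Rik. The next protein-coding genes lie 0.809 Mb away on one side (Tas2r119, a taste receptor listed at 0 in all 6 libraries) and 2.82 Mb away on the other (Dnah5, a dynein of motile cilia, at up to 0.147 FPKM).

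Cct5 and Fam173b are arranged head to head, with 269 bases between their annotated bodies. On GRCm38.p6, RefSeq gives 2 promoter windows of 300 bases for Cct5 and 1 for Fam173b. The upstream window of Cct5 shares 231 bases with that of Fam173b. The other Cct5 window, at chr15:31601490-31601789, does not overlap the Fam173b window. The Fam173b window and the upstream Cct5 window are shown because the same stretch precedes both genes. The capitals mark the shared stretch, read 5′ to 3′ along each gene's own strand, from chr15:31601866-31602165 (plus strand) for Fam173b and chr15:31601797-31602096 (minus strand) for Cct5.
Fam173b: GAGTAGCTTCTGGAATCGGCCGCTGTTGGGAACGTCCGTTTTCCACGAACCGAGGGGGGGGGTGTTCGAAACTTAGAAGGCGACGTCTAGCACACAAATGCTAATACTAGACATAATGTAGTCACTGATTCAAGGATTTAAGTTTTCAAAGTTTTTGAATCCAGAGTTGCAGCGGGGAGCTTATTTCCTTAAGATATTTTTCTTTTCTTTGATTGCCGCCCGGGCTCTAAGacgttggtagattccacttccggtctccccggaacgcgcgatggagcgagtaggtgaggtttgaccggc
Cct5: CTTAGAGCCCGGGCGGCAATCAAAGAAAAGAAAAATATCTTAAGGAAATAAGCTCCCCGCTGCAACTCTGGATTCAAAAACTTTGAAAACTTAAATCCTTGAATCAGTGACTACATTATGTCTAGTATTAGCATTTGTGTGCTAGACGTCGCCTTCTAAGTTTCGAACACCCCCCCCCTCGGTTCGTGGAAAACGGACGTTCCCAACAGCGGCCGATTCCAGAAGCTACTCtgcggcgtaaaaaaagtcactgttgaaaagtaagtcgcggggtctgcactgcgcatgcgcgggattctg

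The windows of Ankrd33b and Ropn1l are shown because both hold the letters TAATCC, the core of sites bound by the photoreceptor factor CRX and other homeobox proteins. The search covered both strands, and both matches read GGATTA along the gene, which is the motif on the opposite strand. They are in capitals, with positions counted from the start site on which each window is set. The first base is at -200 for Ankrd33b (window chr15:31367710-31368009, minus strand) and at -156 for Ropn1l (window chr15:31453640-31453939, minus strand). For Ankrd33b this start site is not the end of the gene body given above.
Ankrd33b: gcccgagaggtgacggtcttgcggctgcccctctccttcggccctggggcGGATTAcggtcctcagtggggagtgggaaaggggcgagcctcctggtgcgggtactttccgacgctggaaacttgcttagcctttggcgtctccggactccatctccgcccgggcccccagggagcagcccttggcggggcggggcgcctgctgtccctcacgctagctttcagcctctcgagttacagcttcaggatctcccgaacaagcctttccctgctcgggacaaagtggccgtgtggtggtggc
Ropn1l: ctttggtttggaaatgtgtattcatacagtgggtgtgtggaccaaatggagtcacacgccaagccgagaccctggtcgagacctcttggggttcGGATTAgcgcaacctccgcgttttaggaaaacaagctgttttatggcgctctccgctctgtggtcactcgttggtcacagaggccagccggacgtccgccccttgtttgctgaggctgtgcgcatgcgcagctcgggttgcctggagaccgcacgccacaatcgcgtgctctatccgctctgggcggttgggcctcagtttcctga

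In the whole table of 32851 promoter windows, 7.06% held TAATCC on either strand. The windows of the other 6 neighbours held none, and neither TATAAA nor CCAAT (13.6% and 37.4% of all windows, both strands) was in any window of the 8 genes. Such matches describe letters and not bound sites. The March6 window is shown for its CG dinucleotides, in capitals, of which it holds 53 against a median of 7 over all windows (chr15:31530988-31531287, minus strand).
March6: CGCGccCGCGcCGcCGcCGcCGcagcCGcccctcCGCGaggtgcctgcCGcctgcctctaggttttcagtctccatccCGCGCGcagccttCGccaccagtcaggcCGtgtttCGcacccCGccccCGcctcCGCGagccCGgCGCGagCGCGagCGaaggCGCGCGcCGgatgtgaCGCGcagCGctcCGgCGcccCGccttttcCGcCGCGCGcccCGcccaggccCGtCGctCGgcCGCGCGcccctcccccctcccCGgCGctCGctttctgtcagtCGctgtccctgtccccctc

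The other neighbours' windows held 9 (Cmbl) to 32 (Dap) CG dinucleotides, and 43.5% of all windows held 10 or more. The GC content of the windows ran from 47.3% for the upstream window of Cct5 to 78.7% for March6, where the median window had 52.7%.

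Values are FPKM as the authors deposited them (fragments scaled to transcript length and to library size), so they can be compared between genes, and a change is the triple-deficient mean less the control mean of log2(FPKM + 1). Estimates from the steps of low values put the libraries at 18.2 to 27.2 M fragments. All 7 cone marker genes were at a mean of at least 1 FPKM, with a summed level of 5226 to 5381 FPKM in controls and 4808 to 5349 FPKM in triple-deficient libraries, whereas 7 rod markers summed to 1275 to 1388 FPKM and 1329 to 1338 FPKM, with 4 of the 7 at a mean of at least 1 FPKM and the channel gene Cnga1 under 0.1 FPKM everywhere. The summed level of 8 pigment epithelium markers was 22.1 to 33.8 FPKM in controls and 14.2 to 21.4 FPKM in triple-deficient libraries, and that of 5 Müller glia markers was 1613 to 1652 FPKM and 1433 to 1566 FPKM, although no gene of either list passed the test. Lens markers summed to 16.02 FPKM in control 1 and to at most 2.5 FPKM elsewhere. Triple-deficient 3 stood apart in base composition, its deviations correlating with the GC content of transcripts across 13790 genes at Spearman -0.59, against 0.06 to 0.30 in the other libraries. The part of these differences in the levels of the neighbours was not tested, except for base composition, given below.

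Ankrd33b itself stood at 35.4, 32.6 and 33.4 FPKM in controls 1, 2 and 3 and at 1.8, 1.31 and 1.39 FPKM in triple-deficient 1, 2 and 3. The groups are far apart, and the log2 change was -3.80 (SE 0.083, limma adjusted p = 4.56e-07). In whole retinas, fewer cells of a type and less RNA per cell cannot be told apart. Ankrd33, on the same chromosome but far from this cluster, fell from 106 ± 2.97 to 55.6 ± 4.66 FPKM (SD, n = 3 each, in this order for all pairs of means), a log2 change of -0.93 (limma adjusted p = 0.00274). Nrl transcripts were at 44.2 ± 5.46 and 52.5 ± 1.16 FPKM (limma adjusted p = 0.861), and a value over the whole gene does not show whether its deleted part is transcribed.

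None of the 7 neighbours was among the 4 genes past the threshold (adjusted p below 0.05) in the fit over 14325 genes, where 0.0279% of genes were called, 0.00698% as higher and 0.0209% as lower in triple-deficient libraries by Benjamini-Hochberg adjusted p. Their changes ran from -0.14 to 0.25 with a median of 0.10, and 5 were above 0 and 2 below it. Over all genes tested, the median change was 0.003, 51.8% of changes were above 0, and the middle of the distribution, from the 10th to the 90th percentile, ran from -0.13 to 0.10. For 2 neighbours, March6 and Fam173b, every triple-deficient library lay above every control, where groups did not overlap for 10.5% of all genes tested, 4.86% in that direction. None of the 7 had every triple-deficient library below every control (5.64% of genes tested). These shares describe a list drawn up with results in view, and nothing is read from them about the list.

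**Figure D1:**
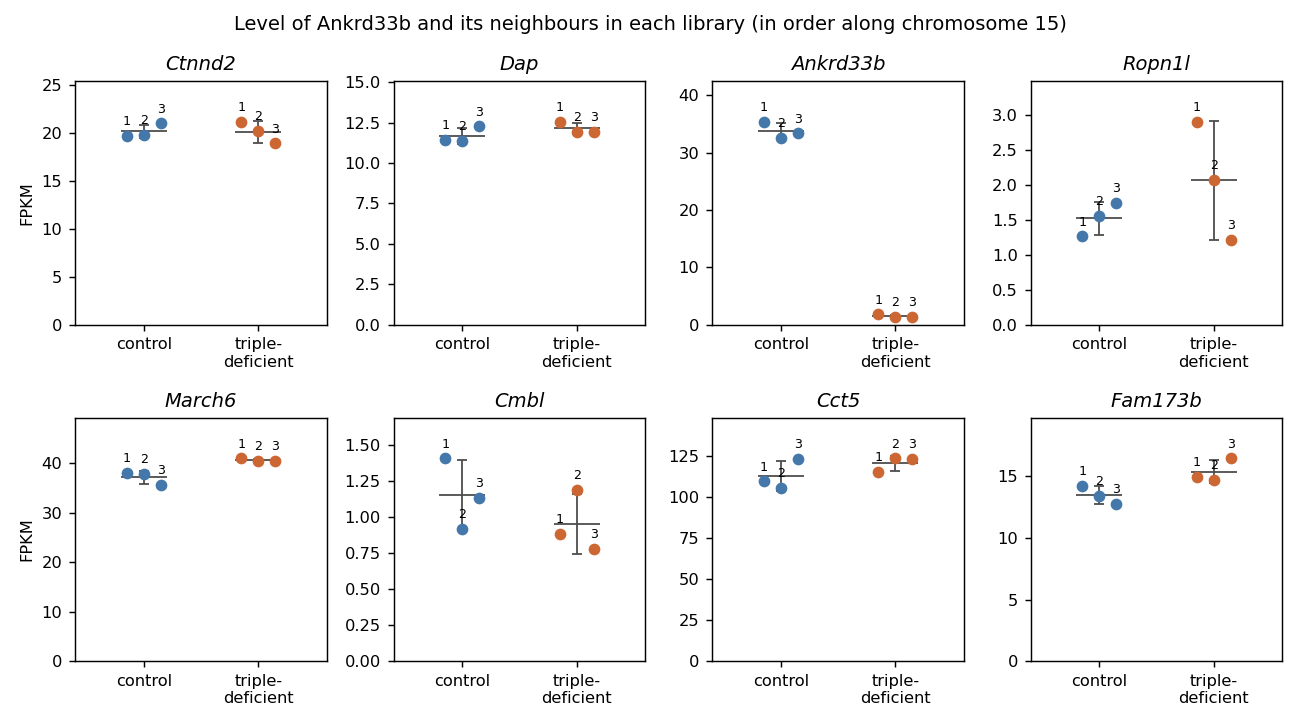
FPKM in each of the 6 libraries (points, numbered by library) for Ankrd33b and its 7 neighbours in chromosomal order, with group mean and SD; each axis starts at 0. Ankrd33b drops from 33.8 to 1.5 FPKM on average, and of the neighbours, March6 and Fam173b have groups that do not overlap.

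Dap, the gene closest to Ankrd33b, was at 11.4, 11.4 and 12.3 FPKM in controls 1 to 3, against 12.6, 11.9 and 12.0 FPKM in triple-deficient 1 to 3. The groups overlap, with control 3 above both triple-deficient 2 and 3, and the change was 0.05 (SE 0.055). Ctnnd2, the neighbour beyond Dap, was at 19.7, 19.8 and 21.0 FPKM in the controls, against 21.2, 20.2 and 18.9 FPKM in triple-deficient libraries. Its means of 20.1 FPKM in both groups differed by less than the spread between libraries (change -0.004, SE 0.057), and triple-deficient libraries held both its highest and its lowest value.

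Ropn1l, the closest gene on the other side, was among the lowest expressed. It stood at 1.26, 1.56 and 1.74 FPKM in controls 1 to 3, against 2.91, 2.08 and 1.21 FPKM in triple-deficient 1 to 3, so that triple-deficient libraries were the 2 highest and also the lowest. The change was 0.25 (SE 0.189), and the coefficient of variation was 15.7% in controls and 41.1% in triple-deficient libraries, where genes of like level (within a factor of 2) had medians of 11.6% and 11.4%. With a longest annotated transcript of 957 bases, these values correspond to about 27, 37 and 38 fragments in controls and 76, 42 and 21 in triple-deficient libraries. Counting error alone is then between 11.5% and 21.8% of a value. Left without triple-deficient 1, the change was 0.05, and without triple-deficient 3 it was 0.465.

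March6 lies next to Ropn1l on the same strand, with 2209 bases between them. It was at 38.0, 37.9 and 35.7 FPKM in controls 1 to 3, against 41.0, 40.5 and 40.5 FPKM in triple-deficient 1 to 3. All 3 triple-deficient libraries were above all 3 controls, and the triple-deficient mean was 9.41% above the control mean (change 0.13, SE 0.045). The triple-deficient values lay close together, with a coefficient of variation of 0.663% where genes of like level had a median of 4.79%. At about 4606 to 6974 fragments per library, counting error is at most 1.47% of a value. In triple-deficient libraries it was estimated at 1.2% to 1.47%, above their coefficient of variation, so their closeness is not read as precision.

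Cmbl, the other low gene, was at 1.41, 0.921 and 1.14 FPKM in the controls, against 0.885, 1.19 and 0.782 FPKM in triple-deficient libraries. The groups overlap, the highest value being that of control 1 and the lowest that of triple-deficient 3, and the change was -0.14 (SE 0.118). Cmbl rests on about 16 to 37 fragments per library, where counting error is 16.5% to 24.7% of a value, and the coefficient of variation was 21.1% in controls and 22.1% in triple-deficient libraries.

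Cct5 was the most abundant neighbour, at 110, 106 and 123 FPKM in controls 1 to 3, against 116, 124 and 123 FPKM in triple-deficient 1 to 3. Control 3 lay among the triple-deficient values, and the change was 0.10 (SE 0.064). Its coefficient of variation was 8.08% in controls, where genes of like level had a median of 3.68%, and 3.73% in triple-deficient libraries.

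Fam173b, which shares its promoter stretch with Cct5, was at 14.2, 13.4 and 12.8 FPKM in the controls, against 14.9, 14.7 and 16.4 FPKM in triple-deficient libraries. The groups do not overlap, control 1 lying just under triple-deficient 2, and the mean was 14.1% higher in triple-deficient libraries (change 0.18, SE 0.063). The ratio of Cct5 to Fam173b was 7.73, 7.89 and 9.66 in controls and 7.74, 8.43 and 7.50 in triple-deficient libraries, and the group ranges overlap. Across the 6 libraries, which share their genotype groups, the log2 values of Cct5 and Fam173b correlated at Pearson 0.30 as a description, and at -0.33 once the group means were removed.

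Base composition entered the genotype comparison with 1 library apart. Triple-deficient 3 correlated with GC content at -0.59, against 0.30 and 0.06 in triple-deficient 1 and 2 and 0.11 to 0.21 in controls. March6 and Fam173b had the lowest GC content of the 7 neighbours (44.7% and 46.9% of the longest transcript, against a median of 49.8% over the genes tested). Across all genes the change correlated with GC content at Spearman -0.36, genes not being independent replicates. The median change of all tested genes within 1 percentage point of GC was 0.02 for the 1326 genes around March6 and 0.02 for the 1471 around Fam173b. With each library's trend on GC content and transcript length removed, the changes were 0.10 (SE 0.037) for March6 and 0.16 (SE 0.053) for Fam173b. Without triple-deficient 3, both changes were 0.13. In that comparison Ropn1l also had groups that do not overlap, making 3 of the 7 neighbours, where 9.39% of all genes tested were higher with groups apart.

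**Figure D2:**
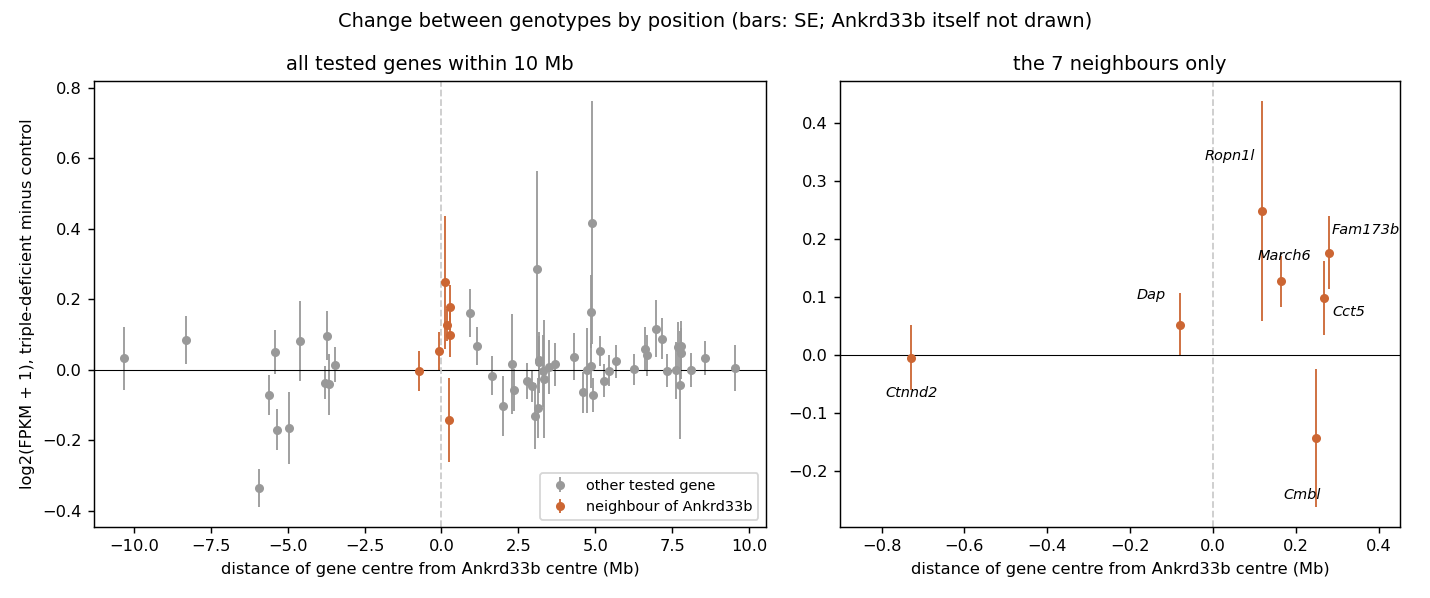
Change in log2(FPKM + 1), triple-deficient minus control, against the distance of each gene's centre from that of Ankrd33b in Mb, for all tested genes whose nearest end is within 10 Mb (left; orange, the 7 neighbours) and for the neighbours alone (right); bars are SE. Changes of the neighbours run from -0.14 (Cmbl) to 0.25 (Ropn1l), and the other genes of the region run from -0.34 to 0.42.

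The wider region was set by position alone, so its other genes could be tested. Within 5 Mb of Ankrd33b, 43 further genes are tabled, 30 of which passed the filter at an average of 0.5 FPKM. None of the 30 passed the threshold in limma, which only 0.0279% of all genes tested did, so counts of 0 here are not read as lack of change. Of the 30, 1 had an unadjusted p below 0.05 (3.33%, where 5.09% of all genes tested did). The smallest adjusted p was 0.943, and 15 of the 30 changes were above 0 (median 0.003). Groups did not overlap for 1 gene in each direction, against 4.86% and 5.64% over all genes tested. Within 10 Mb the count past the threshold was again 0 of 54, with 3 genes (5.56%) at an unadjusted p below 0.05. Around Ankrd33, by the same rule of 5 Mb, 0 of 115 tested genes passed, with 17 (14.8%) at an unadjusted p below 0.05, a larger share than the 5.09% over all genes tested. Groups there did not overlap for 8 genes that were higher and 13 that were lower in triple-deficient libraries, and the difference between these shares was not tested.

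Within 2 Mb, 4 further genes were tested. Snhg18, named after its values were seen, is a long noncoding RNA gene 872.8 kb away that starts head to head with Sema5a. It was at 3.15, 3.25 and 3.19 FPKM in controls 1 to 3, against 3.61, 3.92 and 3.54 FPKM in triple-deficient 1 to 3. Its groups do not overlap, as those of March6 and Fam173b, and its change was 0.16 (SE 0.067, limma adjusted p = 0.943). Sema5a, an axon guidance gene that shares that arrangement, was at 11.4 ± 0.464 and 12.0 ± 0.32 FPKM (SD, n = 3 each; limma adjusted p = 0.956). Sdc2, a heparan sulfate proteoglycan of the cell surface, was at 20.6 ± 1.05 and 20.4 ± 0.824 FPKM, and Cpq, a carboxypeptidase, at 10.3 ± 0.64 and 9.55 ± 1.16 FPKM.

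Among tested genes within 5 Mb that averaged 1 FPKM or more, the highest changes were those of the microRNA gene Mir8097 (0.42, SE 0.344), the ribosomal protein gene Rpl30 (0.29, SE 0.276) and the RNA polymerase subunit gene Polr2k (0.16, SE 0.104). The lowest were those of March11, a ubiquitin ligase gene of the March6 family (-0.17, SE 0.102), Erich5 (-0.11, SE 0.085) and Cpq (-0.10, SE 0.086). All 6 had limma adjusted p-values between 0.946 and 0.958. Basp1, a membrane protein gene of growth cones 5878 kb from Ankrd33b and chosen here after its values were seen, had the smallest p within 10 Mb. It was at 179, 182 and 183 FPKM in the controls, against 152.5, 142 and 136 FPKM in triple-deficient libraries, with a change of -0.34 (SE 0.053, limma adjusted p = 0.268, and 0.0746 to 0.876 over 18 alternatives).

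The order of the levels was read from the controls. Cct5 led with a mean of 113 ± 9.13 FPKM (SD, n = 3), above 96.1% of the genes tested, and was followed by March6 (37.2 ± 1.31), Ankrd33b (33.8 ± 1.45), Ctnnd2 (20.1 ± 0.722), Fam173b (13.5 ± 0.712) and Dap (11.7 ± 0.5), each with a range that did not overlap that of the next. Ropn1l (1.52 ± 0.239) and Cmbl (1.15 ± 0.243 FPKM) came last, with ranges that overlap. In triple-deficient libraries the 7 neighbours kept this order, again with no overlap between ranges next to each other in the first 5, and Ankrd33b moved from the rank after March6 to between Ropn1l and Cmbl.

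Each neighbour was set beside other genes of its own pathway or family, 113 of which were tested in 7 lists. None of the 113 passed the threshold in limma over all genes (0.0279% called), 4 had an unadjusted p below 0.05 (3.54%, where 5.09% of all genes tested did), 62 changes were above 0, and the median was 0.01. Groups did not overlap for 5 upward and 7 downward, where 4.86% and 5.64% of all genes tested did not. The lists describe where a neighbour stands among functionally related genes elsewhere in the genome.

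**Figure D3:**
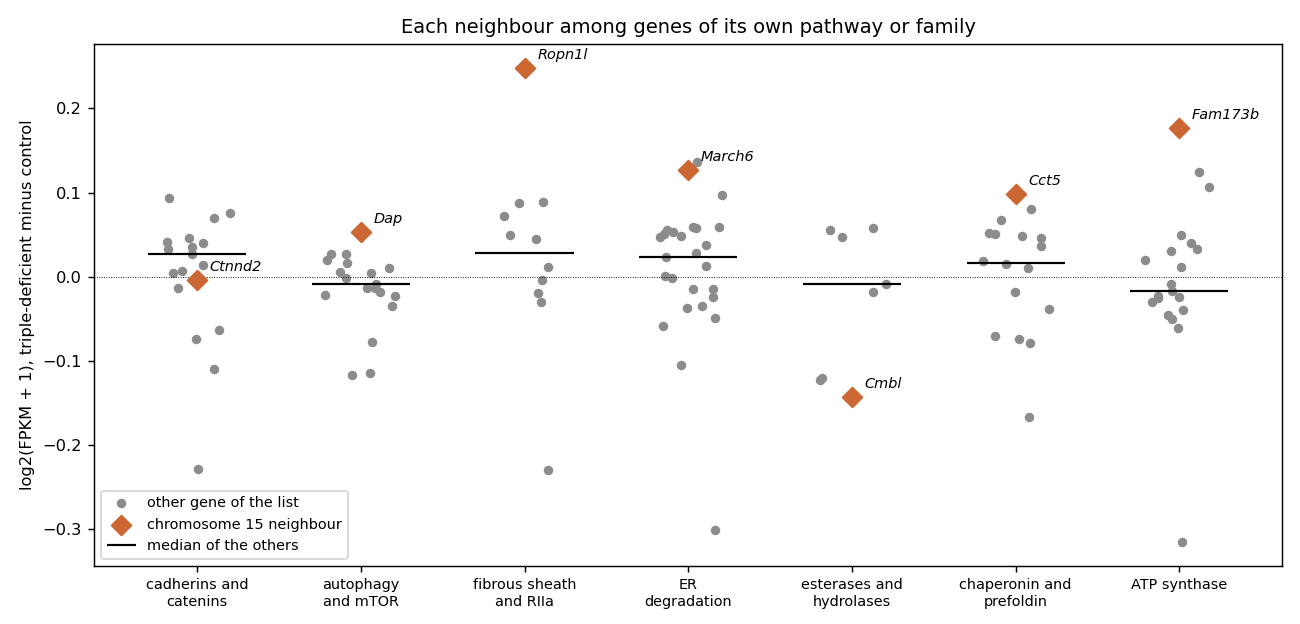
Change in log2(FPKM + 1), triple-deficient minus control, of each chromosome 15 neighbour (diamond) and of the other tested genes of its list (grey points), with the median of the others (line). List medians lie between -0.02 and 0.03, and the neighbours between -0.14 and 0.25.

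Among 17 cadherin and catenin genes beside Ctnnd2, the median change was 0.03. Ctnnd1, which encodes p120-catenin, the closest relative described here, was at 30.9 ± 1.52 and 31.8 ± 0.182 FPKM. Cdh13, a cadherin without a cytoplasmic part, had the smallest p of the list, at 25.5 ± 2.08 and 21.6 ± 1.81 FPKM with groups that do not overlap (change -0.23, limma adjusted p = 0.866). Magi1, a scaffold of cell junctions, was at 23.8 ± 0.231 and 25.0 ± 0.243 FPKM, also with groups apart, and Cdh4 at 14.04 ± 0.487 and 12.9 ± 0.646 FPKM.

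Among 19 autophagy and mTOR genes beside Dap, the median was -0.009. Dapl1, the paralogue of Dap, was more abundant than Dap, at 57.6 ± 6.67 and 57.6 ± 2.89 FPKM. Sqstm1, the autophagy receptor p62, was at 132 ± 3.67 and 122 ± 5.49 FPKM with groups apart (change -0.11, limma adjusted p = 0.943). Map1lc3a was at 108 ± 3.78 and 99.4 ± 8.32 FPKM and Atg5 at 11.4 ± 0.249 and 11.9 ± 0.177 FPKM. The change of Map1lc3a was -0.117, and 0.035 with the GC and length trend removed, so its sign depends on that setting. Of 16 fibrous sheath and cilium genes beside Ropn1l, 10 were tested (median 0.03). Ropn1, its testis paralogue, was at 0 in 5 libraries and at 0.0525 FPKM in triple-deficient 1, while Rsph9, a radial spoke gene, was at 12.9 ± 0.832 and 13.8 ± 1.4 FPKM and Rsph3b at 2.6 ± 0.21 and 2.09 ± 0.42 FPKM. Prkar2b, a regulatory subunit of protein kinase A, was at 16.6 ± 0.2 and 17.5 ± 0.832 FPKM. Markers of testis and motile cilia summed to 7.75 to 8.42 FPKM in controls and 8.23 to 9.37 FPKM in triple-deficient libraries, with Odf1 under 0.1 FPKM everywhere.

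Among 25 genes of ER-associated degradation beside March6, the median was 0.02. Ube2j2, a ubiquitin-conjugating enzyme of the ER membrane, was at 3.15 ± 0.466 and 2.36 ± 0.149 FPKM with groups apart (change -0.30, limma adjusted p = 0.861). Plin2, a lipid droplet protein degraded through March6, was at 5.24 ± 0.19 and 5.85 ± 0.312 FPKM, groups apart. Of 14 esterase and hydrolase genes beside Cmbl, 7 were tested (median -0.008). Lypla1, a protein depalmitoylating enzyme, was at 43.5 ± 1.36 and 45.4 ± 1.87 FPKM, Lypla2 at 48.8 ± 1.81 and 45.3 ± 8.54 FPKM, and the lactonase gene Pon3 at 1.12 ± 0.0825 and 0.952 ± 0.117 FPKM.

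TRiC is assembled from 8 different subunits, and Cct5 was the most abundant of their transcripts in both groups. In controls the other subunits ran from 65.7 ± 3.61 FPKM for Tcp1 to 99.6 ± 1.91 FPKM for Cct2, and in triple-deficient libraries from 68.1 ± 3.84 to 102 ± 4.2 FPKM for the same genes. The lowest Cct5 value, 106 FPKM in control 2, lay above every value of 6 of the other subunits and just under the highest of Cct2, 107 FPKM in triple-deficient 3. All 8 subunits had groups that overlap, with changes from -0.04 (Cct8) to 0.10 (Cct5). In the same list, Pfdn5, a subunit of the co-chaperone prefoldin, was at 164 ± 13.1 and 145 ± 3.52 FPKM with groups apart (change -0.17, limma adjusted p = 0.905), Pdcl, a TRiC cofactor for G protein beta subunits, was at 30.1 ± 0.469 and 31.9 ± 1.58 FPKM, also apart, and Pfdn2 at 55.7 ± 3.73 and 52.6 ± 1.34 FPKM.

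**Figure D4:**
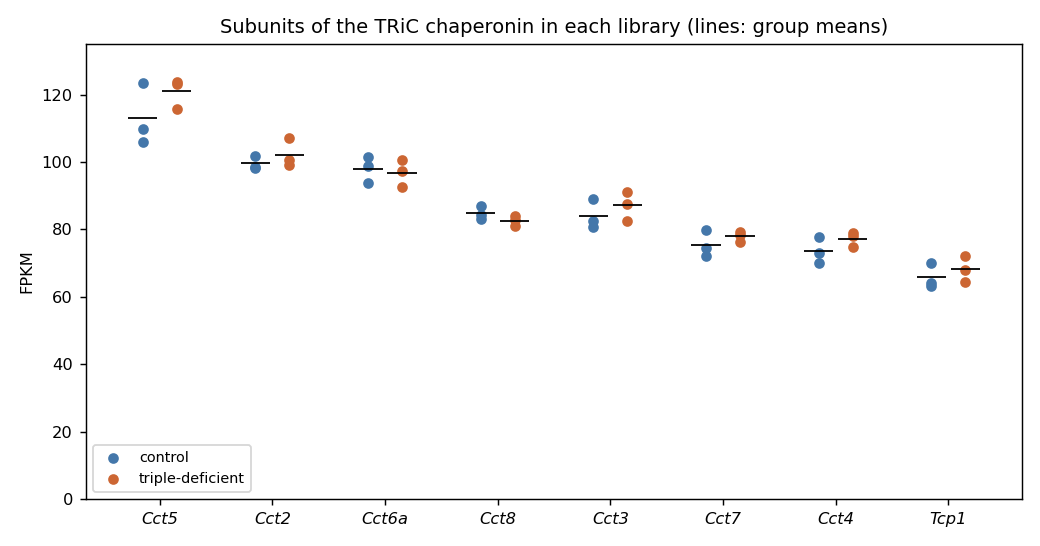
FPKM of the 8 TRiC subunit genes in each control (blue) and triple-deficient (orange) library, with group means as lines and the axis starting at 0. Cct5 has the highest mean in both groups, 113 and 121 FPKM, and every subunit has overlapping groups.

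Fam173b acts on the c subunit of ATP synthase, which is encoded by Atp5g1, Atp5g2 and Atp5g3. These were at 146 ± 3.83, 199 ± 8.35 and 342 ± 6.79 FPKM in the controls, against 151 ± 11.1, 194 ± 13.5 and 336 ± 14.3 FPKM in triple-deficient libraries, with changes of 0.05, -0.04 and -0.03. With the GC and length trend removed, these changes were 0.031, 0.116 and -0.015, so the sign for Atp5g2 depends on that setting. Fam173a, the paralogue that methylates the mitochondrial ADP/ATP carrier, was at 41.1 ± 4.14 and 42.2 ± 1.63 FPKM, and so above Fam173b in every library. Atp5d, the delta subunit, had the smallest p among 19 tested genes, at 147, 137 and 146 FPKM in controls and 129, 125 and 94.3 FPKM in triple-deficient libraries (change -0.32, limma adjusted p = 0.866; median of the list -0.02). Atp5e was at 216 ± 18.9 and 235 ± 16.4 FPKM and Atp5c1 at 182 ± 4.62 and 175 ± 7.01 FPKM.

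For each neighbour, the gene with the most similar pattern was taken as that with the highest Pearson correlation of log2(FPKM + 1) over the 6 libraries, among the genes averaging 5 FPKM or more. These were Plekhh3 for Ctnnd2 (0.99), Cdk5rap1 for Dap (0.997), Ctc1 for Ropn1l (0.98), Prkacb for March6 (0.97), Uckl1 for Cmbl (0.99), Leprot for Cct5 (0.996) and Uba6 for Fam173b (0.99). Each search covered at least 10194 genes with only 6 points, so the values are given as a description. Among the neighbours themselves, March6 and Fam173b were the most alike (0.86), then Ctnnd2 and Ropn1l (0.83), and the correlations of the other pairs ran lower. With the group means removed the order differed: Ctnnd2 and Ropn1l led (0.94), followed by Ctnnd2 and Dap (0.81), and March6 and Fam173b were at 0.51. Negative values were as large: -0.94 for March6 and Cct5, -0.85 for Ctnnd2 and Fam173b, and -0.81 for Ropn1l and Fam173b. Ctnnd2, Dap and Ropn1l also had the highest GC content of the neighbours (55.5%, 55.9% and 55.5%). The part of base composition in these correlations was not tested.

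**Figure D5:**
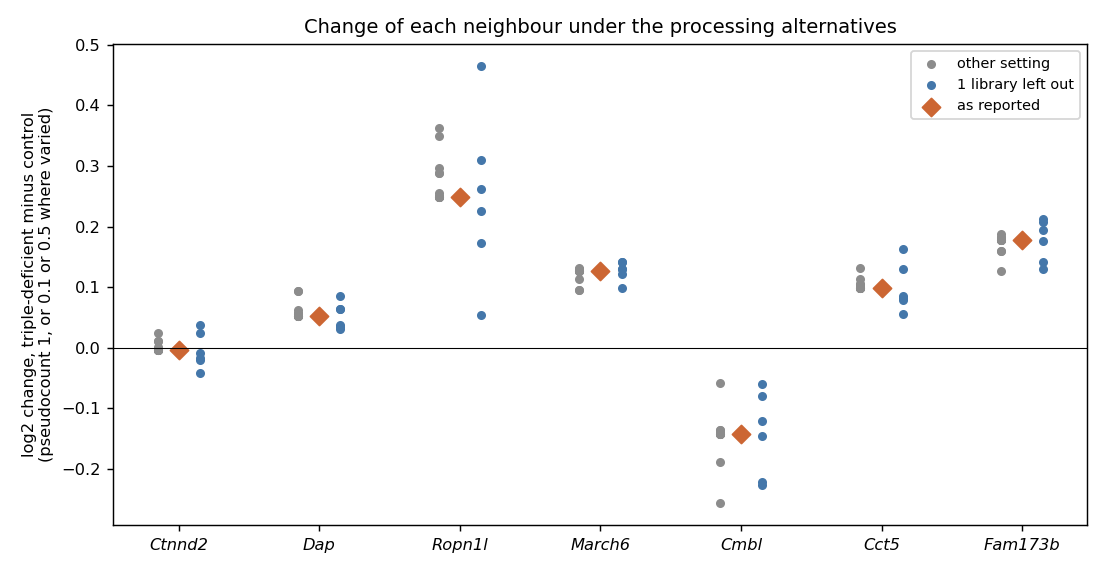
Log2 change of each neighbour, triple-deficient minus control, as reported (diamond), under 12 other settings (grey) and with 1 library left out in turn (blue). The sign of each neighbour is the same in all 18 alternatives except for Ctnnd2, which lies on both sides of 0. The filters, the variance model and the replicate block cannot move a change in this design, so they repeat the reported value. Ropn1l has the widest range, from 0.05 to 0.465.

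Across the 18 alternatives the change stayed between 0.10 and 0.14 for March6, between 0.13 and 0.21 for Fam173b, between 0.06 and 0.16 for Cct5 and between 0.03 and 0.09 for Dap. It stayed between -0.26 and -0.06 for Cmbl and between -0.04 and 0.04 for Ctnnd2. The filters, the variance model and the replicate block could not move a change, so only the other alternatives bear on these ranges. None of the 7 neighbours passed the threshold over all genes in any of these alternatives, where only 2 to 11 of all genes tested did.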

How the data were processed

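Per the labels' protocols, retinal RNA was extracted with TRIzol and sequenced from a strand-marking mRNA kit (TruSeq). The authors deposited 1 FPKM value per gene symbol and library, as the file headers name it. The submitters' processing notes name build mm10 and, among tools, Cufflinks 2.2.1, Cuffdiff, Bowtie2 2.3.5.1 and TopHat2 2.1.1. For the annotation, the strand setting in counting and the scaling of libraries, the method is not given in the sources used here. Reads from overlapping annotated noncoding genes (at Ctnnd2, Dap, Ropn1l and March6) cannot be told apart.

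All 6 libraries entered 1 fit on log2(FPKM + 1) with a trended prior variance (limma 3.58.1, run under R 4.3.3). It covered the 14325 genes averaging 0.5 FPKM or more. Tests were two-sided, with Benjamini-Hochberg adjustment over all genes and a threshold of 0.05. The log2(FPKM + 1) scale understates changes of low genes. All 7 neighbours passed the filter, each also on its mean in either group alone. Fragments were estimated from the steps of values below 0.3 FPKM, with 58 single-transcript genes for the absolute scale, and are not counts, so no count model was fitted. Coordinates and promoters are RefSeq's for GRCm38.p6 (24229 of 24346 symbols matched). GC content and length come from the longest GENCODE M21 transcript.

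The members, the partner and marker lists and the tests were chosen with earlier results of these data known. Named genes were, by rule, the targeted genes, the 7 neighbours, the other protein-coding genes within 2 Mb, the 3 highest and 3 lowest changes within 5 Mb (averaging 1 FPKM or more), 3 of each list with the smallest p, paralogues or complex mates, and the gene most like each neighbour. One gene that the rule names is not reported here. Snhg18 and Basp1 were named after their values were seen, and the remaining TRiC subunits and single markers complete their lists. Alternatives covered pseudocounts, filters, variance model, weights, scaling, base composition, a replicate block and leaving out each library.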

Additional observations from a re-analysis of the deposited data

How the results depend on the processing

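Over all genes, 4 passed the threshold as reported, 2 with no filter on low values, 2 with robust shrinkage, and 3 to 11 when 1 library was left out (7 without control 3, 10 without triple-deficient 1, 11 without triple-deficient 3). The cause was not tested. In those 18 alternatives with limma, 0 further genes within 5 Mb of Ankrd33b, 0 partner genes and 0 neighbours passed, and windows of 2 Mb and 10 Mb, run with the reported settings, also gave 0 (unadjusted p below 0.05: 1 gene within 5 Mb and 4 partner genes as reported). The median change of the 7 neighbours stayed between 0.05 and 0.11, and Ankrd33b and Ankrd33 passed in all 18 alternatives. With the replicate block 4 genes passed over all genes. The block is balanced against genotype, so it could not move the neighbours' changes or their median of 0.10. Nor could the filters or the variance model. Whether the numbers pair the libraries cannot be decided from the data. Deviations of same-numbered libraries correlated at 0.02, 0.11 and 0.07, and those of other pairs at -0.19 to 0.12. Not every library correlated best with its own number, but so few values, bound together by the group means, do not exclude pairs. The count of neighbours with groups apart was repeated without triple-deficient 3 after seeing the data (3 in place of 2). Ropn1l and Cmbl rest on at most 76 and 37 fragments per library, and how far depth or the spread between libraries limits them was not tested.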
